A study of Mus musculus with 4 samples.

Results

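Wnt5a, Wnt5b, Ror1, Ror2, Sfrp1, Sfrp2, Dkk2, Dkk3, Wif1 and Axin2 are a set of genes around Wnt5 signalling, and their unique molecular identifiers (UMIs) were counted in single nuclei of injured mouse brain. They were taken by name, as 10 of 33696 gene features, and all 10 were found in the 4 deposited matrices. WNT proteins are secreted lipid-modified ligands. In the canonical branch they bind Frizzled and LRP5 or LRP6 receptors, stabilise β-catenin and switch on target genes such as Axin2, which encodes a scaffold that feeds back to lower β-catenin. WNT5A and WNT5B mostly act through the receptor tyrosine kinases ROR1 and ROR2 in a branch that changes cell shape, polarity and migration without β-catenin. Secreted modulators act outside the cell: SFRP1, SFRP2 and WIF1 bind WNT ligands themselves, DKK2 binds the LRP5 and LRP6 co-receptors, and DKK3 is a relative of the other DKK proteins whose effect on Wnt signalling is less settled. WNT5A and ROR proteins are best known in the mesenchyme of the developing limb, face and skeleton.

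Nuclei came from the brains of mice killed 21 days after photothrombotic (PT) injury, a focal cortical lesion made by illuminating a circulating dye. The library labelled control (hereafter control-labelled) held nuclei of mice of genotype WT, and the library labelled Cxcl12-cKO (cKO-labelled) held nuclei of Col1a2(creER); Cxcl12(flox) mice, in which an inducible Cre made by Col1a2-expressing cells, mainly fibroblasts, deletes the floxed chemokine gene Cxcl12. Each library pooled 1 female and 1 male mouse, all with PT injury. Lesional nuclei and those of the surrounding parenchyma carried separate multiplexing tags and were mixed at 75% and 25% before capture, so that region shares were set by design. Control mice of the study's conditional strains were largely induced Cre-negative or flox-heterozygous littermates, but which of these applied here is not stated, and the mice were adults. Nuclei could be assigned to the female or the male mouse by sex-linked UMIs, but both were captured in 1 library, so no test between genotypes was made and values of each sex are given beside the main differences. Intervals below are 95% intervals for counting error only, and a difference between libraries has no replicate check.

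The 4 matrices held 23489 barcodes, of which 21743 were kept. Median depth was 2962 and 2975 UMIs per lesional nucleus and 15915 and 16648 per parenchymal nucleus in the control-labelled and cKO-labelled libraries. The 2 libraries shared 22 barcode sequences between their lesions and 1 between their parenchymal samples. UMIs of both sexes (Xist with a Y-linked gene) were found in 9.75% to 14.3% of kept nuclei, so free RNA or doublets were present in every matrix. The targeted gene went against its label: Cxcl12 in lesional fibroblast-like nuclei was at 106 CPM (101 to 111) in the control-labelled library and 215 CPM (208 to 223) in the cKO-labelled library. Which part of the gene was deleted was not stated, so 3′ counts check nothing about the deletion, and each direction below is between libraries as labelled.

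Levels are given as CPM, the summed UMIs of a gene scaled to 1000000 summed UMIs of all nuclei of a class. The deposited counts were not scaled to gene length, and nuclear RNA of long genes can yield more UMIs, so levels are compared between nuclei for 1 gene and not between genes. Classes were built from clusters made without the members and without 89 other Wnt pathway genes, and are named "-like" from fixed markers. In the lesion they comprised 4257 and 4143 fibroblast-like nuclei (control and Cxcl12-cKO), 1582 and 2047 myeloid-like nuclei and 422 and 455 astrocyte-like nuclei, with smaller numbers of neurons, oligodendrocyte-lineage, endothelial-like, T-cell-like and osteoblast-lineage-like nuclei. Fibroblast markers (Col1a1, Col1a2, Col3a1, Dcn, Lum and Col6a3) were summed as a measure of fibroblast RNA in every class. Pdgfra was a marker for naming but was left out of this sum. Subclusters of the myeloid, astrocyte and endothelial clusters with UMIs of both sexes in over 25% of nuclei were called mixed and kept apart. Their shares of 29.2% to 40.5% follow from that rule.

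Both receptor genes of the Wnt5 branch and the ligand gene Wnt5a were found mostly in fibroblast-like nuclei, and the ligand gene Wnt5b was not. Of all UMIs of a gene over the 21743 nuclei, fibroblast-like nuclei held 80.2% for Ror2, 77.3% for Ror1 and 75.2% for Wnt5a. For Wnt5b the share was 32.8%. This class comprised 4257 and 4143 lesional and 61 and 61 parenchymal nuclei (control and Cxcl12-cKO). A member was called higher in lesional fibroblast-like nuclei where its level was at least 2-fold that of all other lesional nuclei in both libraries, a rule met by 9.89% of 19663 genes. It was met by 3 of 10 members, Wnt5a, Ror1 and Ror2. With each nucleus assigned by its own marker score, Wnt5a did not meet it and Wif1 did. None of the 10 was at least 2-fold lower in both libraries, against 20.5% of genes.

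**Figure D1:**
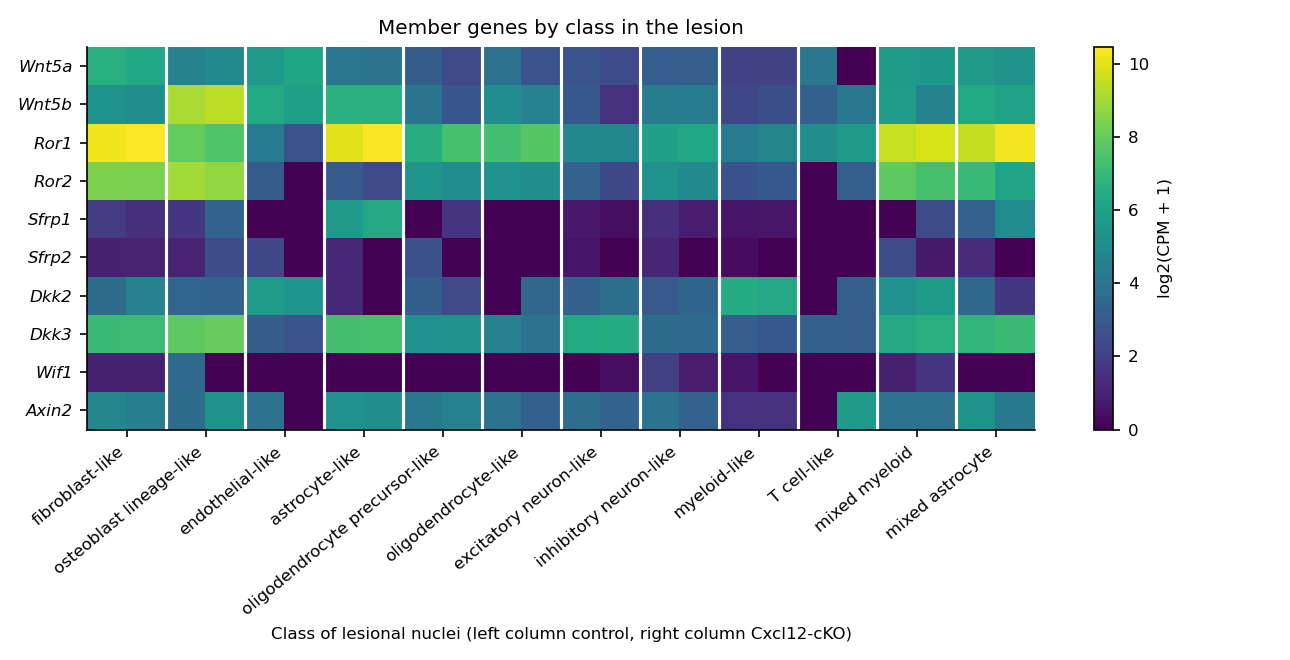
Level of each member in each class of lesional nuclei as log2(CPM + 1), with the control-labelled library in the left column of a class and the cKO-labelled library in the right column. Ror1 is bright in both fibroblast-like and astrocyte-like nuclei, whereas Ror2 is bright in fibroblast-like and osteoblast-lineage-like nuclei and low in astrocyte-like nuclei, and Dkk2 is highest in myeloid-like nuclei.

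Wnt5a (ENSMUSG00000021994), the prototype ligand of the β-catenin-independent branch, was at 97.1 CPM (92.1 to 102) in fibroblast-like nuclei of the control-labelled library and 74.4 CPM (70.1 to 78.9) in the cKO-labelled library. These levels were 7.76-fold (6.77 to 8.96) and 6.29-fold (5.39 to 7.39) those of other lesional nuclei. A UMI was found in 21.1% and 17.8% of fibroblast-like nuclei, against 0.759% and 0.830% of myeloid-like nuclei at a depth of 2042 and 2254 UMIs. Fibroblast-like nuclei, with a median of 3054 and 3102 UMIs, were therefore far above this background in both libraries. Endothelial-like nuclei were the nearest class, at 48.3 CPM (25.7 to 82.5) and 72.0 CPM (38.3 to 123), and could not be ordered against fibroblast-like nuclei in the cKO-labelled library. Most of that came from the endothelial subcluster led by Pglyrp1, Slco1c1 and Car4, which held 90.0 and 146 CPM from 12 and 13 UMIs.

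Wnt5b (ENSMUSG00000030170), the close paralog of Wnt5a, followed another distribution. It was at 39.5 CPM (36.3 to 42.8) and 35.3 CPM (32.4 to 38.5) in fibroblast-like nuclei, which was 0.79-fold and 1.11-fold the level of other lesional nuclei. Osteoblast-lineage-like nuclei, a small group of 344 and 86 nuclei, held 565 CPM (517 to 615) and 668 CPM (565 to 785), with a UMI in 52.9% and 57.0% of nuclei. Astrocyte-like nuclei came next, at 98.7 and 98.3 CPM, and endothelial-like nuclei followed at 81.7 and 60.9 CPM. Myeloid-like nuclei held 3.70 and 4.68 CPM. Wnt5b was thus highest in osteoblast-lineage-like nuclei in both libraries, where Wnt5a was at only 24.9 and 31.6 CPM.

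Ror1 (ENSMUSG00000035305) and Ror2 (ENSMUSG00000021464) encode the paired receptors of WNT5 ligands. Ror1 was at 1198 and 1409 CPM in fibroblast-like nuclei, 6.04-fold (5.83 to 6.26) and 4.20-fold (4.08 to 4.33) the level of other lesional nuclei. Ror2 was at 337 and 324 CPM, 6.06-fold (5.67 to 6.49) and 9.86-fold (9.01 to 10.8). After every nucleus was thinned to 1000 UMIs, a Ror1 UMI was found in 57.3% and 59.0% of fibroblast-like nuclei and a Ror2 UMI in 26.4% and 25.4%, against 1.95% and 3.01% (Ror1) and 0.606% and 0.519% (Ror2) of myeloid-like nuclei.

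Outside fibroblast-like nuclei the receptors parted. Astrocyte-like nuclei held Ror1 at 1015 CPM (966 to 1066) and 1358 CPM (1308 to 1409), with a UMI in 68.2% and 84.2% of nuclei, but Ror2 at only 6.92 and 3.89 CPM, from 11 and 8 UMIs. Osteoblast-lineage-like nuclei were the reverse, with Ror2 at 519 and 433 CPM, above its fibroblast-like level, and Ror1 at 253 and 199 CPM, below its own. Summed fibroblast markers in lesional astrocyte-like nuclei were at 6.48% and 4.88% of the fibroblast-like level, whereas Ror1 was at 84.7% and 96.4%. The Ror1 level of astrocyte-like nuclei was therefore not in proportion to the fibroblast RNA counted in them.

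Start regions of 4 members are shown, since the paired receptors, the ligand with the osteoblast-lineage-like pattern and the β-catenin target differ in where they are counted. They are RefSeq sequences of the 250 bases before the annotated start, in build GRCm38.p6, 5′ to 3′ on the strand of the gene. Ror1 lies at chr4:100095541-100095790 (+), Ror2 at chr13:53286125-53286374 (-), the Wnt5b start with a match at chr6:119449387-119449636 (-) and Axin2 at chr11:108920099-108920348 (+). Capitals mark CTTTGA, or TCAAAG on the other strand, a core that β-catenin's partners of the TCF and LEF family bind.
Ror1: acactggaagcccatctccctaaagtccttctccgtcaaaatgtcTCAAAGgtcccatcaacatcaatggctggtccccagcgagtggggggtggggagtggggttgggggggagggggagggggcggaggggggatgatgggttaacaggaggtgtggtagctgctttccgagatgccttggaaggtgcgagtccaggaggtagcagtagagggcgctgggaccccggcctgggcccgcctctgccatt
Ror2: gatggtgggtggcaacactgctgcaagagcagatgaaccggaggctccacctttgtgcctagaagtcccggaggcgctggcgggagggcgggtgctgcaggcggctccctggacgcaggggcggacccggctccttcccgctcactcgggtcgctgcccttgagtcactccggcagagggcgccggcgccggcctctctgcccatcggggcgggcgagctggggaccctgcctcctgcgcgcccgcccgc
Wnt5b: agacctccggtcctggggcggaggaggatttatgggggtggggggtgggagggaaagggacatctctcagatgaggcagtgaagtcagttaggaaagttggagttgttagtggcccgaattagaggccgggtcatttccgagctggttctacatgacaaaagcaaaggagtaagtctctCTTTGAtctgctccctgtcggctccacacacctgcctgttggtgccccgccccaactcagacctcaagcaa
Axin2: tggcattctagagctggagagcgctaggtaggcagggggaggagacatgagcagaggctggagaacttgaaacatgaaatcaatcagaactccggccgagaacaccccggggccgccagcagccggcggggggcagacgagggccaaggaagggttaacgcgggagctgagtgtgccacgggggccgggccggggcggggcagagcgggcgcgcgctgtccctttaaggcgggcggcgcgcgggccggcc

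The match lay 205 bases before the start in Ror1 and 71 bases before it in Wnt5b. The windows of the other annotated Wnt5b starts, chr6:119544348-119544597 (-) and chr6:119467212-119467461 (-), held no match and are not shown. Entries were at hand for 7 of 10 members, with 9 annotated starts, and 2 of the 9 held the letters, against 4544 of 32851 promoters (13.8%) overall. A match describes the letters of the window and shows neither binding nor regulation, and its absence from the Axin2 and Ror2 windows says nothing about sites elsewhere.

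Among secreted modulators, Dkk2 and Sfrp1 had their leading class outside the fibroblast-like nuclei. Dkk2 (ENSMUSG00000028031) was at 89.3 CPM (80.1 to 99.4) and 78.5 CPM (71.3 to 86.3) in lesional myeloid-like nuclei, against 11.8 CPM (10.1 to 13.7) and 23.6 CPM (21.2 to 26.2) in fibroblast-like nuclei. Of its 2131 UMIs over all nuclei, 36.4% were in myeloid-like, 26.9% in excitatory-neuron-like and 25.1% in fibroblast-like nuclei. Within myeloid-like nuclei it was concentrated in the subcluster led by Lrguk, Sall3 and Sall1, a transcription factor gene of microglia, with 151 and 155 CPM and a UMI in 13.8% and 16.1% of 842 and 1022 nuclei. The subcluster led by Atp6v0d2 and Cd36 held 26.0 and 6.26 CPM (32 and 15 UMIs), the one led by Flt3 held 53.5 and 22.5 CPM (11 and 6 UMIs), and the one led by Cd163 and Mrc1 held 2.53 and 30.6 CPM (1 and 8 UMIs). Endothelial-like nuclei held 52.0 and 44.3 CPM, from 14 and 8 UMIs.

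Sfrp1 (ENSMUSG00000031548), the gene of a secreted WNT-binding protein, was counted mainly in astrocyte-like nuclei, with 55.5% of its 438 UMIs there. The lesional level was 49.0 CPM (38.8 to 61.2) in the control-labelled library and 78.4 CPM (66.7 to 91.5) in the cKO-labelled library, from 78 and 161 UMIs. Fibroblast-like nuclei held 38 and 25 UMIs, or 2.61 and 1.67 CPM, and endothelial-like nuclei held none, which allows up to 11.1 and 16.6 CPM. Sfrp2 (ENSMUSG00000027996) and Wif1 (ENSMUSG00000020218) were near the limit of detection, with 68 and 106 UMIs over all nuclei. Fibroblast-like nuclei held 14 and 16 UMIs of Sfrp2 and 13 and 13 of Wif1, and inhibitory-neuron-like nuclei held 42.5% of all Wif1 UMIs.

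Dkk3 (ENSMUSG00000030772) was shared between fibroblast-like nuclei, glia and excitatory neurons. In fibroblast-like nuclei it was at 138 and 145 CPM, 1.93-fold (1.80 to 2.07) and 2.34-fold (2.17 to 2.52) other lesional nuclei, so it passed 2-fold in 1 library only. Astrocyte-like nuclei held 165 and 170 CPM, lesional excitatory-neuron-like nuclei 80.6 and 89.1 CPM and osteoblast-lineage-like nuclei 229 and 262 CPM. Myeloid-like nuclei were lowest among these, at 7.93 and 6.30 CPM. Over both regions excitatory-neuron-like nuclei held 55.5% and fibroblast-like nuclei 31.8% of its 13308 UMIs.

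Axin2 (ENSMUSG00000000142), the β-catenin target, was at 26.3 CPM (23.7 to 29.0) and 21.2 CPM (18.9 to 23.6) in fibroblast-like nuclei. That was 1.91-fold (1.63 to 2.24) and 1.78-fold (1.48 to 2.15) the level of other lesional nuclei, under the 2-fold limit in both libraries. Astrocyte-like nuclei held 37.7 and 35.0 CPM, with a UMI in 12.6% and 13.0% of nuclei, and myeloid-like nuclei 1.85 and 1.80 CPM. The T-cell-like level is not comparable, with 0 UMIs in 93 nuclei and 6 UMIs in 89.

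Fibroblast-like nuclei were divided into states to ask which of them held the members. Subcluster 0 matched the late inner list (Fgf13, Cdh18, Sema3c and Fn1) with 3 of 4 markers raised, and held 1137 and 1438 nuclei. Subclusters 1 (led by Trpm3, Col25a1 and Ptgds) and 2 (led by Col4a6, Slc7a11 and Lama1) both matched leptomeningeal markers, with 1573 and 1437, and 435 and 497 nuclei. Of the leptomeningeal list 4 of 5 markers were raised in subcluster 1 and 5 of 5 in subcluster 2. Subcluster 3 matched dural border markers and was led by Galnt13, Slc47a1 and Slc47a2, with 1112 and 771 nuclei. Subcluster 4 was the osteoblast-lineage-like group, led by Fat3 and Tnn, with 5 of 8 markers of that list raised. Its mean log2 fold was 2.47 for that list and 2.37 for the second-best list, that of myofibroblasts, so the name is uncertain. Subcluster 4 was compared with the other 4 together and is otherwise kept out of the fibroblast-like class. Its fibroblast markers were at 267% and 251% of the fibroblast-like level.

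**Figure D2:**
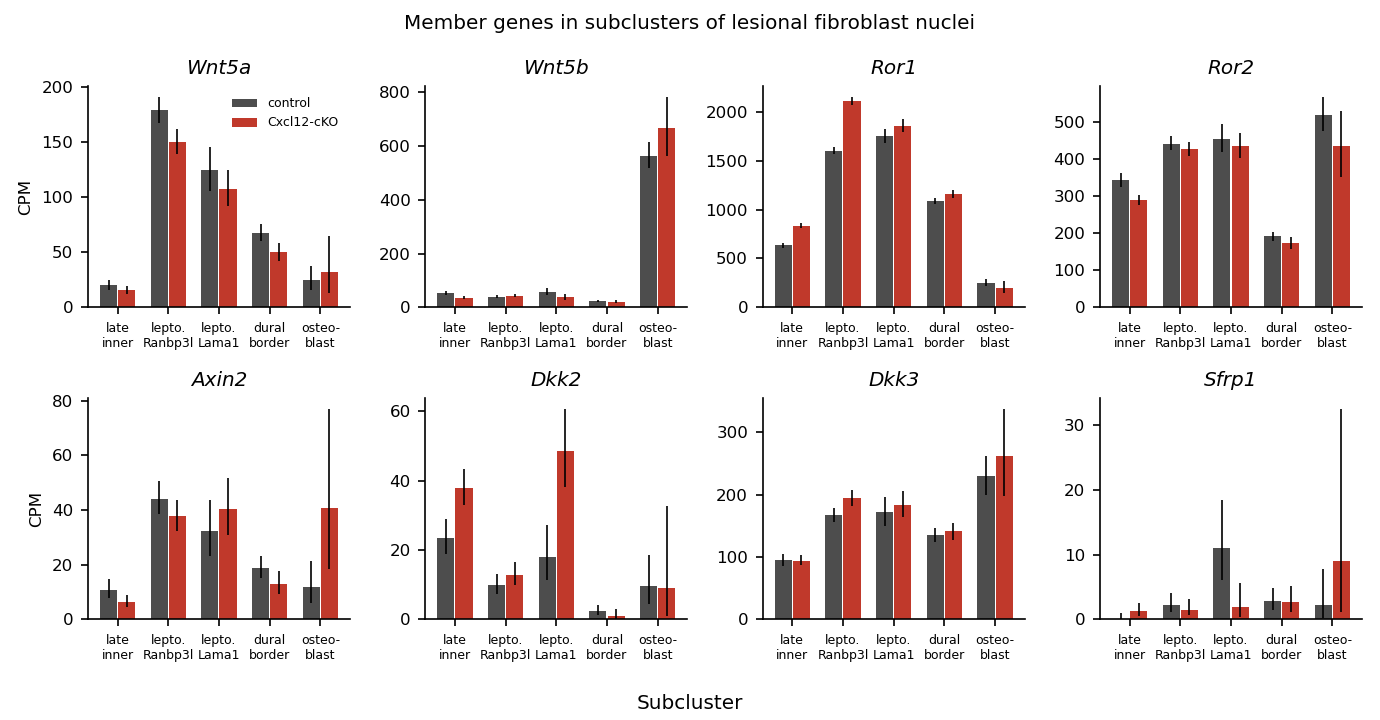
Level in CPM of 8 members in 5 subclusters of lesional fibroblast nuclei, with the control-labelled library in grey and the cKO-labelled library in red. Bars start at 0, lines are exact Poisson 95% intervals, and each panel has its own scale. Wnt5a, Ror1 and Axin2 are lowest or near lowest in the late inner subcluster and higher in both leptomeningeal subclusters, and Wnt5b stands out in the osteoblast-lineage-like subcluster.

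Wnt5a was highest in the leptomeningeal states. Subcluster 1 held 179 CPM (167 to 191) and 150 CPM (139 to 162), subcluster 2 held 124 and 107 CPM, subcluster 3 held 67.5 and 50.1 CPM and subcluster 0 held 20.2 CPM (15.9 to 25.2) and 15.4 CPM (12.4 to 19.1). The intervals of these 4 levels did not overlap within the control-labelled library or within the cKO-labelled library. Subcluster 1 was 3.17-fold (2.85 to 3.54) and 3.77-fold (3.33 to 4.27) the other fibroblast-like nuclei, and subcluster 0 was at 0.163-fold and 0.141-fold. A Wnt5a UMI was found in 33.2% and 29.8% of nuclei of subcluster 1 and in 5.45% and 5.29% of those of subcluster 0.

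Axin2 was likewise lowest in the late inner state among the 4 and highest in the leptomeningeal states. It was at 44.1 CPM (38.4 to 50.5) and 37.8 CPM (32.4 to 43.8) in subcluster 1, 32.3 and 40.3 CPM in subcluster 2, 18.8 and 13.1 CPM in subcluster 3 and 10.7 CPM (7.71 to 14.6) and 6.39 CPM (4.48 to 8.85) in subcluster 0. The intervals of subclusters 1 and 2 overlapped in both libraries. Subcluster 1 was 2.54-fold (2.07 to 3.13) and 2.79-fold (2.22 to 3.51) the other fibroblast-like nuclei, and subcluster 0 was at 0.342-fold and 0.215-fold.

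Ror1 was also lower in the late inner state, at 635 and 835 CPM, or 0.455-fold and 0.475-fold the others. It reached 1604 and 2115 CPM in subcluster 1, 1748 and 1857 CPM in subcluster 2 and 1086 and 1157 CPM in subcluster 3. Ror2 did not share this drop: it was at 342 and 289 CPM in subcluster 0, 441 and 427 CPM in subcluster 1 and 454 and 435 CPM in subcluster 2. Its low state was the dural border subcluster, at 191 CPM (178 to 204) and 173 CPM (158 to 188), or 0.472-fold and 0.477-fold the others. The receptors therefore had different lowest states among the 4 fibroblast-like subclusters, late inner for Ror1 and dural border for Ror2.

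In the late inner state 3 modulators were at least 2-fold above the other fibroblast-like nuclei in both libraries. Dkk2 was at 23.6 and 38.0 CPM there, 3.09-fold (2.27 to 4.23) and 2.54-fold (2.04 to 3.17) the others. It was at 18.1 and 48.6 CPM in subcluster 2, 1.65-fold (0.994 to 2.52) and 2.36-fold (1.80 to 3.03), and at 2.37 and 0.982 CPM in the dural border subcluster, from 11 and 3 UMIs. Of the few Sfrp2 UMIs, 12 of 14 and 14 of 16 were in subcluster 0, 14.1-fold (3.77 to 156) and 9.58-fold (2.66 to 105) the others. Wif1 was counted with 13 and 8 UMIs in subcluster 0, at least 12.2-fold and 2.55-fold (0.762 to 10.3) the others. The 13 UMIs lay in 6 of 1137 nuclei, with 8 of them in the same nucleus, so that fold rests largely on this nucleus. The 8 UMIs of the cKO-labelled library lay in 7 of 1438 nuclei. Dkk3 was lower in this state, at 94.9 and 94.3 CPM against 135 to 195 CPM in the other 3, though not past 2-fold. Sfrp1 had too few UMIs to order the states.

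The osteoblast-lineage-like subcluster combined high Wnt5b and Ror2 with low Wnt5a and Ror1. Wnt5b was 14.3-fold (12.7 to 16.1) and 18.9-fold (15.6 to 22.7) the fibroblast-like level, while Wnt5a was at 0.262-fold and 0.455-fold and Ror1 at 0.212-fold and 0.143-fold. Axin2 in this group was at 11.9 and 40.6 CPM, from 11 and 9 UMIs. This subcluster held 344 nuclei in the control-labelled library and 86 in the cKO-labelled library.

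Over the 10 members, 3 were called at least 2-fold higher and 3 lower in subcluster 0 in both libraries, against 4.16% and 4.75% of 16720 genes. In subcluster 1 it was 2 higher and 1 lower (background 3.28% and 4.64%), in subcluster 2 none higher and 1 lower (4.98% and 4.36%), in subcluster 3 none higher and 4 lower (1.59% and 5.62%), and in subcluster 4 it was 1 higher and 2 lower (6.18% and 5.45%). Sfrp2 and Wif1, with under 20 UMIs per library, gave 2 of the 6 higher and 4 of the 11 lower calls. Subclusters were made without the members, but other genes of the same nuclei defined them.

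Over the 10 points given by 5 subclusters in 2 libraries, Wnt5a levels ran with those of Axin2 (Pearson r of log2(CPM + 1) 0.81) and Ror1 (0.74). Ror1 with Wnt5b gave -0.85, but subcluster 4 lay far from the rest, with Wnt5b at 565 and 668 CPM and Ror1 at 253 and 199 CPM. Among the fibroblast-like subclusters, both genes were highest in subcluster 2 (control-labelled) and subcluster 1 (cKO-labelled). Their lowest subclusters differed, subcluster 0 for Ror1 and subcluster 3 for Wnt5b. No r was computed without subcluster 4, so -0.85 does not show that the genes oppose each other across fibroblast-like states. The points share libraries and the clustering, so these r values describe the subclusters only. Among 10603 genes outside the pathway lists, those most like Wnt5a were Ptn (0.981), Adcy5 (0.976) and Lepr (0.975). Those most like Wnt5b were Ntng2 (0.986), Elmo1 (0.984) and Ankrd44 (0.982), and those most like Ror1 were 2610307P16Rik (0.995), Sptbn1 (0.994) and Pamr1 (0.986). For Ror2 they were Klf13 (0.932), Kank2 (0.932) and Iws1 (0.931), for Dkk2 Nav3 (0.948), Emp1 (0.932) and Acot7 (0.927), for Dkk3 Ywhaq (0.981), Sncaip and Slc25a27, and for Axin2 Aldh16a1 (0.940), Snx21 and Slc6a20b.

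The libraries were then compared in lesional fibroblast-like nuclei, to ask whether Wnt5 pathway genes differed under the Cxcl12-cKO label. A member was called past 1.5-fold with at least 20 UMIs over both libraries. This called 1 of 10 higher and 1 lower, against 5.54% of 16720 genes higher and 4.43% lower. The higher member was Dkk2 and the lower one was Sfrp1, whose interval included 0.

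**Figure D3:**
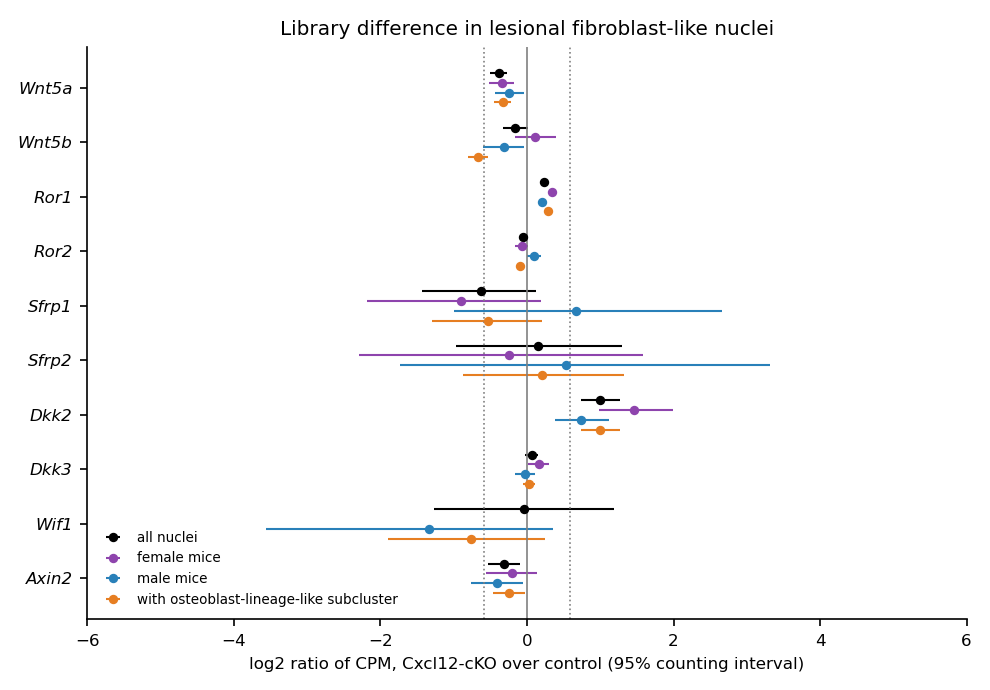
Log2 ratio of CPM in lesional fibroblast-like nuclei, cKO-labelled over control-labelled, for all nuclei, for nuclei assigned to the female or the male mice, and with the osteoblast-lineage-like subcluster included. Lines are 95% counting intervals, dotted lines mark 1.5-fold, and Wif1 in the female mice, with 0 UMIs in the control-labelled library, is not drawn. All 4 Dkk2 points lie right of 1.5-fold, the Wnt5b point passes 1.5-fold only with the osteoblast-lineage-like subcluster, and the Sfrp1 points of the female and the male mice lie on opposite sides of 0.

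Dkk2 was counted with 172 UMIs in the control-labelled library and 353 in the cKO-labelled library, or 11.8 CPM (10.1 to 13.7) and 23.6 CPM (21.2 to 26.2). The log2 ratio was 1.00 (0.73 to 1.27). It was 1.47 (0.98 to 1.99) in the female mice, at 8.12 and 22.6 CPM, and 0.74 (0.38 to 1.12) in the male mice, at 16.7 and 28.1 CPM. Both mice labelled Cxcl12-cKO were above both mice labelled control.

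These UMIs came from few nuclei, so the interval, which treats UMIs as independent, is too narrow. In the control-labelled library 83 of 4257 nuclei held a Dkk2 UMI (1.95%), with 2.07 UMIs each on average, and in the cKO-labelled library 108 of 4143 did (2.61%), with 3.27 each. There were 1 and 5 nuclei with 10 or more UMIs, holding 11 and 90 UMIs, and without those UMIs the levels were 11.0 and 17.6 CPM. By state, the log2 ratio was 0.68 (0.33 to 1.06) in subcluster 0 and 1.40 (0.74 to 2.16) in subcluster 2, and 0.37 (-0.20 to 0.95) in subcluster 1, which did not differ beyond counting error. In subcluster 2, 1 nucleus labelled Cxcl12-cKO held 30 of the 76 UMIs, and without it the level fell from 48.6 to 29.4 CPM, against 18.1 CPM in the control-labelled library. The late inner state also took a larger share of fibroblast-like nuclei in the cKO-labelled library (1438 of 4143, against 1137 of 4257). The difference between libraries is therefore larger in UMIs than in the share of nuclei with a UMI, and after thinning to 1000 UMIs those shares were 0.82% and 1.06%.

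The other members stayed within 1.5-fold or had few UMIs. Wnt5a had a log2 ratio of -0.38 (-0.50 to -0.27), with -0.35 for female and -0.24 for male nuclei. Axin2 had a log2 ratio of -0.31 (-0.53 to -0.09), with -0.21 and -0.41. Ror1 had a log2 ratio of 0.23 (0.20 to 0.26), with 0.35 and 0.21. A Ror1 UMI was held by 3420 of 4257 and 3406 of 4143 nuclei, and 455 and 610 nuclei with 10 or more held 6947 and 10940 UMIs. Without the UMIs of those high nuclei the level was 721 CPM in the control-labelled and 677 CPM in the cKO-labelled library. This cut takes more from the library with more such nuclei and keeps their depth, so it cannot decide the direction. For Wnt5a, Axin2 and Ror1 counting error alone did not span 0 and the female and male mice had the same direction, but the sizes lie under the 1.5-fold limit and no replicate library shows how far they vary.

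Wnt5b (-0.16, -0.33 to 0.01), Ror2 (-0.05, -0.11 to 0.00) and Dkk3 (0.07, -0.02 to 0.15) did not differ beyond counting error. Sfrp1 had 38 UMIs in the control-labelled library and 25 in the cKO-labelled library, a log2 ratio of -0.63 (-1.43 to 0.13), with -0.90 for female and 0.68 for male nuclei. Sfrp2 (16 against 14 UMIs) and Wif1 (13 against 13) could not be told apart between libraries at this depth. With the osteoblast-lineage-like subcluster counted as fibroblast, Wnt5b was at 1097 and 676 UMIs and its log2 ratio became -0.67 (-0.81 to -0.53), as that subcluster holds 86 against 344 nuclei. In single states Axin2 was lower in subcluster 0 (-0.75, -1.44 to -0.07) and Wnt5b in subcluster 2 (-0.61, -1.14 to -0.09).

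The rest of the pathway was read from a list of 89 further genes, of which 67 had enough UMIs in lesional fibroblast-like nuclei. Past 1.5-fold were 2 genes higher and 2 lower in the cKO-labelled library, and 63 lay within. The median log2 ratio of the list was -0.02, against 0.00 over all 16720 genes tested. The gene with the most UMIs behind its call was Rspo2, which encodes a secreted protein that strengthens canonical Wnt signalling. It was at 19.8 CPM (289 UMIs) in the control-labelled library and 37.0 CPM (552 UMIs) in the cKO-labelled library, a log2 ratio of 0.90 (0.69 to 1.11), with 1.77 for female and 0.35 for male nuclei. Rspo2 did not pass 1.5-fold in the male mice alone or after thinning to 1000 UMIs. It was higher under the Cxcl12-cKO label in each of the 4 fibroblast-like states, at 12.3 and 29.6 CPM in subcluster 0, 41.4 and 61.9 in subcluster 1, 6.30 and 10.2 in subcluster 2 and 7.11 and 25.8 in subcluster 3.

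Notum, the gene of an enzyme that inactivates WNT proteins by removing their lipid, and itself a canonical target, was lower, with 62 and 27 UMIs and a log2 ratio of -1.22 (-1.94 to -0.56). It was lower in both the female (-1.21) and the male (-1.49) mice, and most of its UMIs (48 and 23) were in subcluster 1. The ligand gene Wnt6 (23 and 39 UMIs, 0.71, -0.05 to 1.54) and the R-spondin receptor gene Lgr6 (19 and 12 UMIs, -0.68, -1.87 to 0.42) also passed. Both were named after their values were seen, their intervals include 0, and the male mice went the other way (-0.60 and 0.07).

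By role, 1 of 6 ligands tested was higher, 0 of 12 receptors passed in either direction, and 1 of 10 extracellular modulators was higher and 1 lower. None of 2 secretion genes, 16 cytoplasmic and nuclear genes or 10 planar polarity genes passed, and 1 of 11 targets was lower. The most counted ligands were Wnt9a (70.7 and 72.2 CPM, log2 ratio 0.03), Wnt16 (-0.20) and Wnt4 (-0.17). The most counted receptors were the co-receptors Lrp6 (389 and 371 CPM, -0.07) and Lrp5 (0.03) and the WNT-binding kinase-like receptor Ryk (-0.11). Wls, which carries WNT proteins to the cell surface, was at 344 and 339 CPM (-0.02), and Porcn, which adds their lipid, had a ratio of -0.18.

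Among modulators Sfrp4, a relative of the WNT-binding members, was at 185 and 197 CPM (0.09, with -0.31 for female and 0.44 for male nuclei), the R-spondin receptor Lgr4 had a ratio of -0.26 and the proteoglycan gene Gpc4 of -0.19. The nuclear effector Tcf7l2 was at 573 and 585 CPM (0.03), and the kinase genes Csnk1a1 (-0.01) and Gsk3b (0.00) were level. Planar polarity genes, which act in the same branch as the ROR receptors, were led by Prickle1 at 812 and 784 CPM (-0.05), Prickle2 (0.06) and Daam1 (0.18). The most counted targets, Znrf3 (-0.13), Nkd2 (-0.05) and Rnf43 (0.09), are negative feedback genes and lay within 1.5-fold.

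In astrocyte-like nuclei the members were followed by subcluster. Subcluster 3, led by Slco1a4, Steap4 and Tnc, held 170 of 422 lesional astrocyte-like nuclei in the control-labelled library and 300 of 455 in the cKO-labelled library. Its Ror1 level was 1628 CPM (1539 to 1722) and 1527 CPM (1465 to 1590), with a UMI in 91.8% and 92.0% of nuclei, or 136% and 108% of the fibroblast-like level, beside fibroblast markers at 6.04% and 4.66%. Wnt5b was at 143 and 115 CPM and Sfrp1 at 91.1 and 94.9 CPM in this subcluster. Subcluster 1 held Ror1 at 499 and 978 CPM and Wnt5b at 74.1 and 62.8 CPM.

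Subcluster 2, led by the homeostatic astrocyte genes Slc7a10, Slco1c1 and Gpc5, was the one present in both regions. Its Ror1 level was 346 and 397 CPM in the lesion (63 and 22 nuclei) and 36.5 and 44.4 CPM in the parenchyma (37 and 43 nuclei, 7 and 10 UMIs). Axin2 went the other way from Ror1 across subclusters, at 71.0 and 143 CPM in lesional subcluster 2 and 29.1 and 25.7 CPM in subcluster 3, although the former rests on 16 and 13 UMIs.

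**Figure D4:**
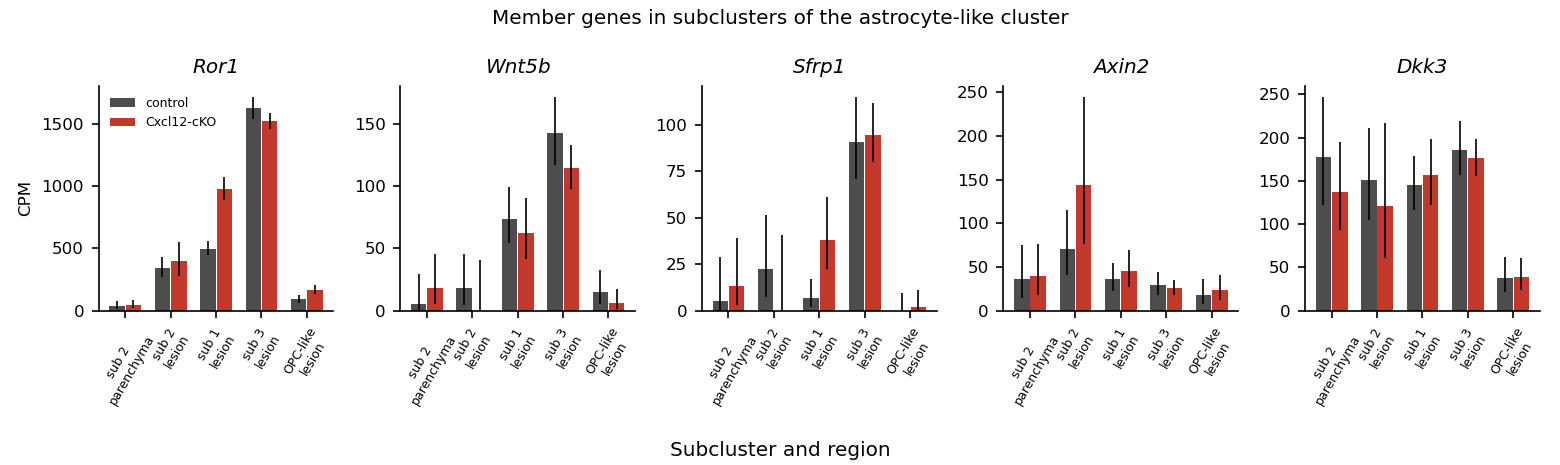
Level in CPM of 5 members in subclusters of the astrocyte cluster by region, including its oligodendrocyte-precursor-like (OPC-like) subcluster, with the control-labelled library in grey and the cKO-labelled library in red. Bars start at 0 and lines are exact Poisson 95% intervals. Ror1, Wnt5b and Sfrp1 step up from parenchymal subcluster 2 to lesional subcluster 3, where Ror1 reaches 1628 and 1527 CPM, and Dkk3 stays near the same level across the astrocyte-like bars.

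Lesion and parenchyma were compared over the whole astrocyte cluster, which held 617 and 645 lesional and 63 and 61 parenchymal nuclei. The parenchymal nuclei were mostly of subcluster 2 (37 and 43) and the OPC-like subcluster (21 and 13). Of the lesional nuclei only 63 and 22 were of subcluster 2, so the regions differed in subcluster composition. Past 1.5-fold in both libraries were 5 of 7 members tested, all higher in the lesion, against 15.6% of 13748 genes higher and 13.6% lower. Ror1 was at 797 and 1115 CPM in the lesion and 72.8 and 75.3 CPM in the parenchyma, 10.7-fold (7.40 to 17.0) and 14.5-fold (9.93 to 23.1). Wnt5b was at 81.4 and 75.4 CPM against 5.82 and 25.1 CPM, 11.2-fold (3.82 to 116) and 2.83-fold (1.5 to 7.04), with 2 UMIs in the parenchyma of the control-labelled library. Sfrp1 was 7.24-fold (1.89 to 432) and 5.33-fold (2.09 to 30.4) higher, over 1 and 3 parenchymal UMIs.

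Wnt5a and Ror2 had 0 parenchymal UMIs in this cluster and were at least 2.67-fold and 1.88-fold (Wnt5a) and at least 5.0-fold and 1.98-fold (Ror2) higher in the lesion. Most of the lesional Ror2 UMIs were in the mixed and OPC-like subclusters, and with astrocyte-like subclusters alone Ror2 had too few UMIs and 4 of 6 members were higher. After every nucleus was thinned to 1000 UMIs, Wnt5a, Ror1 and Sfrp1 still passed in the astrocyte cluster, but Wnt5b and Ror2 did not. Dkk3 (1.13-fold and 1.41-fold) and Axin2 (0.889-fold and 0.782-fold) were within 1.5-fold. Fibroblast markers also differed between regions, from 3.84% and 2.53% of the fibroblast-like level in parenchymal to 6.48% and 4.88% in lesional astrocyte-like nuclei, and were at 53.4% and 27.7% in the mixed subcluster. Their part in the smaller Wnt5a and Ror2 values was not tested. Tags of the other region made up 2.41% to 4.48% of the tag UMIs of a matrix.

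Other classes with enough nuclei were compared in the same way. In inhibitory-neuron-like nuclei 2 of 8 members were higher in the lesion (background 4.63% higher and 15.1% lower). Ror2 was at 40.1 and 31.3 CPM in the lesion and 13.9 and 17.4 CPM in the parenchyma, 2.89-fold (2.09 to 3.94) and 1.81-fold (1.25 to 2.53). Dkk2 was 2.01-fold (0.87 to 4.12) and 4.38-fold (1.98 to 9.13) higher. Fibroblast markers in these nuclei were at 6.10% and 3.52% of the fibroblast-like level in the lesion and 1.08% and 1.06% in the parenchyma, and their part in the Ror2 values was not tested. After thinning to 1000 UMIs, Ror2 and Ror1 passed and Dkk2 did not.

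In excitatory-neuron-like nuclei 0 of 8 members passed in both libraries (background 5.11% higher and 17.8% lower). Ror1 was at 1.49-fold (1.27 to 1.74) and 1.46-fold (1.14 to 1.82). Parenchymal neurons were deeper, and after thinning to 1000 UMIs Wnt5b was lower and Dkk2 higher in the lesion in both libraries, while the mean of per-nucleus CPM called Dkk2 alone. By cluster, Ror1 was higher in the lesion in middle-layer-like (2.43-fold, 1.81 to 3.21, and 2.11-fold, 1.53 to 2.83) and upper-layer-like nuclei (2.38-fold, 1.53 to 3.57, and 1.88-fold, 1.02 to 3.07), and Ror2 was lower in deep-layer-like nuclei (0.533-fold, 0.323 to 0.809, and 0.232-fold, 0.0679 to 0.502). Wnt5a in upper-layer-like, Ror2 in middle-layer-like and Axin2 in deep-layer-like nuclei were also called higher, and Wnt5b and Dkk2 in upper-layer-like nuclei lower. Each of these had an interval that included 1 in at least 1 library. The share of all genes called was not computed within single neuron clusters, so the calls by cluster have no background beside them.

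Parenchymal fibroblast-like nuclei numbered only 61 and 61, and their fibroblast markers were at 24.9% and 28.2% of the lesional level. Against them 3 of 10 members were higher in the lesion (background 8.59% higher and 16.0% lower), namely Wnt5a (3.19-fold and 1.90-fold), Ror1 (2.65-fold and 2.06-fold) and Ror2 (4.05-fold and 5.07-fold). Sfrp1 was lower, at 0.19-fold and 0.09-fold, over 3 and 4 parenchymal UMIs. How far a lower fibroblast marker content of the parenchymal nuclei enters these folds was not tested.

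Neuron clusters differed in the members they held. Among parenchymal neuron clusters, Dkk3 was at 130 and 122 CPM in the deep-layer-like cluster, 103 and 82.2 CPM in the middle-layer-like cluster and 49.8 and 44.3 CPM in the upper-layer-like cluster. It was lowest in the Pvalb-and-Sst-interneuron-like cluster, at 5.22 and 4.47 CPM, and was 9.51 and 11.3 CPM in the striatal-projection-like cluster. Dkk2 was highest in the layer-5-like cluster, at 21.9 and 22.3 CPM. Wnt5b (76.6 and 59.8 CPM) and Wnt5a (25.2 and 20.2 CPM) were highest in the Adarb2-interneuron-like cluster, and Ror1 was at 89.6 and 77.0 CPM in the striatal-projection-like cluster.

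**Figure D5:**
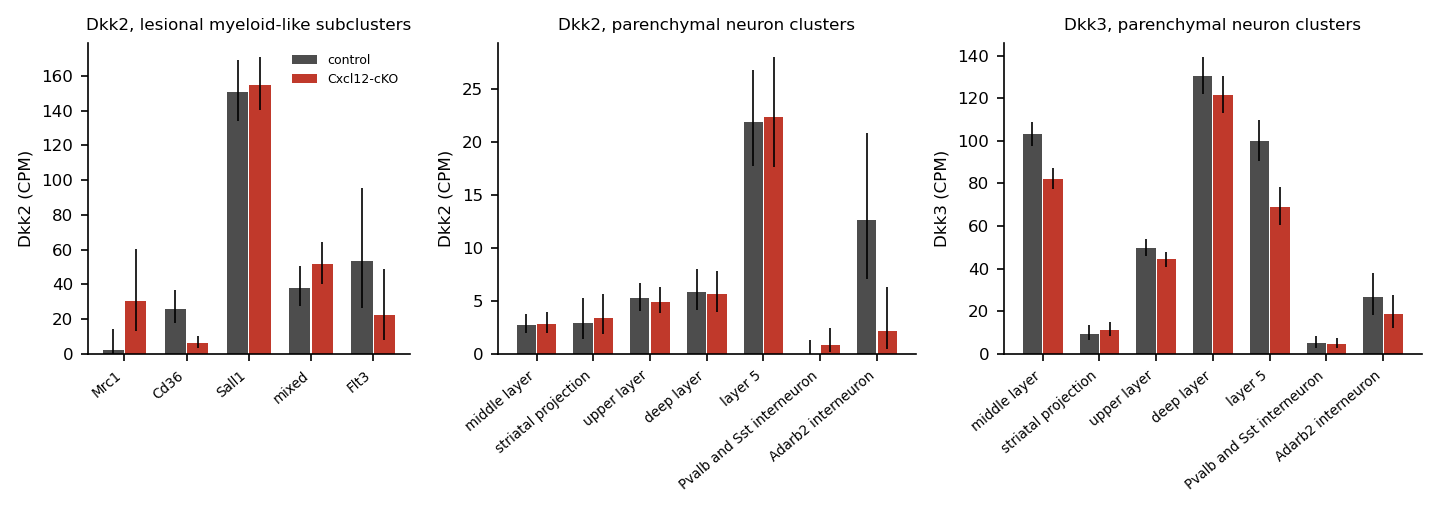
Level in CPM of Dkk2 in lesional myeloid-like subclusters (left) and in parenchymal neuron clusters (middle), and of Dkk3 in parenchymal neuron clusters (right), with the control-labelled library in grey and the cKO-labelled library in red. Bars start at 0, lines are exact Poisson 95% intervals, and the scales differ. Dkk2 peaks in the Sall1 subcluster (151 and 155 CPM) and, among neurons, in the layer-5-like cluster, and Dkk3 is lowest in the Pvalb-and-Sst-interneuron-like cluster.

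The libraries were also compared in the other classes, where the share of all genes past 1.5-fold, in either direction, was mostly larger. In lesional astrocyte-like nuclei 1 of 6 members passed (background 15.7%): Sfrp1 had a log2 ratio of 0.67 (0.28 to 1.09), with 0.00 in the female mice and 1.76 in the male mice. Within subcluster 3, which held most Sfrp1 UMIs, it was level between libraries (0.05, -0.37 to 0.49), beside the larger share of that subcluster in the cKO-labelled library. Ror1 stayed under the limit in astrocyte-like nuclei (0.42, 0.33 to 0.51), being higher in subcluster 1 (0.97, 0.76 to 1.19) and level in subcluster 3 (-0.09).

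In lesional myeloid-like nuclei 0 of 6 members passed (background 11.2%), and Dkk2 had a log2 ratio of -0.19 (-0.39 to 0.02). The Dkk2 difference of fibroblast-like nuclei was thus not seen in the class that held most of this gene, although the difference between classes was not tested. In lesional excitatory-neuron-like nuclei 2 of 7 passed (13.1%), both lower, Wnt5b (48 and 6 UMIs, -1.63, -3.25 to -0.50) and Ror2 (67 and 12 UMIs, -1.16, -2.23 to -0.31). Fibroblast markers in these nuclei were also lower in the cKO-labelled library, at 2.44% against 3.66% of the fibroblast-like level, and their part in the 2 values was not tested. Their parenchymal counterparts had 0 of 8 (7.58%).

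In inhibitory-neuron-like nuclei 1 of 7 passed in the lesion (23.8%), Axin2 at -0.73 (-1.88 to 0.29), and 2 of 8 in the parenchyma (8.30%), Wif1 at -1.25 (-2.36 to -0.27) and Dkk2 at -0.59 (-1.53 to 0.31). In the lesion 1 of 4 passed in oligodendrocyte-like nuclei (19.8%), Dkk3 on 14 and 10 UMIs, and 1 of 3 in OPC-like nuclei (22.0%), Ror1 at 0.88 (0.32 to 1.5). For osteoblast-lineage-like nuclei it was 1 of 6 (26.7%), Axin2 at 1.79 (0.32 to 3.18), and for endothelial-like nuclei 0 of 3 (25.1%). Shares of members called in the osteoblast-lineage-like, oligodendrocyte-like, astrocyte-like and lesional inhibitory-neuron-like nuclei lay near or below the share of all genes called there.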

How the data were processed

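Single nuclei were captured with the 10x Chromium 3′ v3.1 chemistry. The authors ran Cell Ranger 9.0.0 on GRCm39 and deposited UMI counts per gene and nucleus, unnormalised, as 1 matrix for each region of each library (4 in all, no column left unused). Whether intronic reads were counted was not stated. The 10 members and all lists were chosen with earlier results of these data known.

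Barcodes in the lowest or highest 2.5% of UMIs or genes, or with the highest 2.5% of mitochondrial share, were removed (1746), leaving 21743 nuclei with 758 to 36243 UMIs. Counts were scaled to 10000 and log-transformed. Leiden clustering (scanpy 1.11.5, 3000 variable genes, 30 components, 20 neighbours, resolution 0.25) gave 16 clusters. It left out the members, the 89 pathway genes, Cxcl12, Cxcr4, Ackr3, and sex-linked and mitochondrial genes. Classes were clustered again with 2000 genes. Names needed at least 3 markers detected in 2% of nuclei, a threshold lowered from 10% after the clusters were seen. Subclusters with UMIs of both sexes in over 25% of nuclei were called mixed. Scrublet marked 12 of 11852 and 22 of 11637 barcodes and so had not worked, hence no doublets were removed. Nuclei were assigned to the female or male mouse by Xist and Y-linked UMIs.

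UMIs summed per class gave CPM with exact Poisson intervals. Log2 ratios had 0.5 added to each sum and exact conditional binomial intervals, and shares had exact (Clopper-Pearson) binomial intervals, also after thinning nuclei to 1000 UMIs. Levels of 0 were bounded by 3 counts. Steps were tested on simulated data. Named pathway genes had 50 UMIs, passed 1.5-fold and had the same direction in both sexes, or were the 3 of their role with most UMIs. Likeness used genes with at least 200 UMIs. Alternatives changed the filter, resolution, naming, thinning, weighting, doublet removal and mice. Tools further comprised scipy 1.17.1, numpy 2.4.6, igraph 0.11.9, anndata 0.12.19, pandas 2.3.3, matplotlib 3.10.9, scikit-learn 1.9.0 and Python 3.11.15.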

Additional observations from a re-analysis of the deposited data

Results flagged for a closer look

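Both mice of a genotype shared 1 library, and some ratios between libraries had opposite directions in the female and the male mice with intervals that excluded 0 in both. These differences between mice were not tested. In parenchymal excitatory-neuron-like nuclei the log2 ratio of Ror1, cKO-labelled over control-labelled, was -0.41 (-0.63 to -0.19) for female nuclei and 0.79 (0.53 to 1.05) for male nuclei. In the Lama1 leptomeningeal subcluster of lesional fibroblast-like nuclei that of Ror2 was -0.69 (-0.93 to -0.44) for female nuclei and 0.41 (0.14 to 0.69) for male nuclei. With 1 mouse of each sex and genotype, sex and individual mouse cannot be told apart.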

How the results depend on the processing

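No paired analysis was possible because the labelled samples are 1 library per genotype. The female and the male mice, taken alone, gave same-sex values without a test. Dkk2 in lesional fibroblast-like nuclei stayed past 1.5-fold over 15 settings, with log2 ratios of 0.63 to 1.47. Over the same settings Ror1 ranged from 0.21 to 0.35, Wnt5a from -0.69 to -0.23 and Axin2 from -0.47 to -0.16. The number of members past 1.5-fold there fell from 2 to 1, leaving Dkk2, with no barcode removed, with the highest 10% of Scrublet scores removed, with the mean of per-nucleus CPM, with the male mice alone and with nuclei thinned to 1000 UMIs. The Sfrp1 log2 ratio was 0.68 in the male mice alone, the reverse of -0.63. Wnt5b passed the limit at resolution 0.5 (-0.64), with nuclei named by their own marker score (-0.66) and with the osteoblast-lineage-like subcluster included (-0.67). The last alternative was chosen after seeing the data and also gave Wif1 -0.77. At resolution 0.5 no step set that subcluster apart, so the fibroblast-like class at this setting can hold its nuclei. Wnt5a passed it with marker scores (-0.69). Members higher in fibroblast-like nuclei numbered 5 in place of 3 at resolution 0.5, with Dkk3 and Wif1 added, and were 3 by marker score, Ror1, Ror2 and Wif1, with Wnt5a lost. Pathway genes past 1.5-fold numbered 4, and 8 at resolution 0.5, 7 by marker score, 7 with member and pathway genes kept in the clustering, 8 in the female mice, 13 with no UMI minimum, 2 after thinning (Scrib and Notum, without Rspo2) and 7 with the osteoblast-lineage-like subcluster. Members with a regional difference numbered 7 in the 3 classes compared, 10 with the mean of per-nucleus CPM and 7 after thinning, with other genes. The cause of these changes was not tested. For Sfrp2 (14 and 16 UMIs) and Wif1 (13 and 13) a 1.5-fold difference lies within counting error at this depth.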

Other observations

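Lesional layer-5-like neurons, with 47 nuclei in the control-labelled library and 25 in the cKO-labelled library, were too few for a regional comparison. Their Dkk2 level was 72.5 CPM (53.1 to 96.7) and 102 CPM (70.7 to 143), from 46 and 34 UMIs, beside 21.9 and 22.3 CPM in the parenchymal nuclei of the same cluster. In the mixed group of the myeloid cluster, which was left out of the classes, Ror1 was at 735 and 910 CPM, with fibroblast markers at 98.3% and 61.0% of the fibroblast-like level.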
